A study of Brassica carinata and Brassica napus and Brassica carinata x Brassica napus with 3 samples.

Results

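Gibberellins are growth hormones, and the 18 proteins described here make them, break them down, bind them or repress the responses to them. The transcripts were measured in floral buds at the initial flowering stage of Brassica carinata cultivar W29, of Brassica napus cultivar Zhongshuang 11 and of an interspecific hybrid of these species, with 1 RNA-seq library for each group. No sequence was read from a genome: reads were counted on 157663 assembled sequences, each listed with its best hit, where it had one, in the protein collection Swiss-Prot. Neither the direction of the cross nor the generation of the hybrid is given in the sources used here. Members were the assembled sequences whose Swiss-Prot hit is named gibberellin 20 oxidase, gibberellin 3-beta-dioxygenase, gibberellin 2-beta-dioxygenase, Gibberellin receptor GID1 or DELLA protein, with a hit score of at least 0.6 of the score of the best hit in the larger collection Nr. This gave 79 sequences, which were summed to 18 Swiss-Prot IDs out of 10526 IDs at the same score ratio. They comprised 12 sequences of 3 gibberellin 20-oxidases, 5 of 2 gibberellin 3-oxidases, 13 of 4 gibberellin 2-oxidases, 17 of 3 GID1 receptors and 32 of 6 DELLA proteins. Values are RPKM, reads scaled to the length of the sequence and to the total reads of the library, summed over the sequences of an ID. In 15 of the 18 IDs the sum reached 5 RPKM in at least 1 library, and the other 3 stayed below it.

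In plants, 20-oxidases and 3-oxidases carry out the last steps that make bioactive gibberellin, and 2-oxidases inactivate it. The hormone binds the soluble receptor GID1, which then holds a DELLA protein, and the DELLA protein is marked for breakdown by an F-box protein of the GID2/SLY1 type. DELLA proteins restrain growth while gibberellin is low, and in Arabidopsis flowers they restrain stamen elongation and petal growth.

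The libraries held 28.1 M (B. carinata), 27.1 M (hybrid) and 28.2 M (B. napus) counted reads, so 0 reads still allow a level of up to 0.107, 0.111 and 0.106 RPM (reads scaled to the library total alone). Each difference compares 1 library with another and has no replicate check, so no test across samples was possible. Read ratios are given with 95% intervals from the exact conditional binomial distribution, and these hold only the error of counting reads, which carry no molecular identifiers and are not independent molecules. Ratios of RPKM were taken on the log2 scale after adding 1 RPKM, which understates the difference of low genes, and an ID counted as apart at 2-fold on that scale where the higher library reached 5 RPKM. Weighting the libraries by TMM factors instead of totals moves every ratio before that addition by 0.28 on the log2 scale for B. carinata over B. napus, by 0.18 for the hybrid over B. carinata and by 0.46 for the hybrid over B. napus. Median-of-ratios factors move the same ratios by 0.28, -0.31 and -0.03, so the 2 scalings shift the hybrid in opposite directions. Whole buds mix all floral organs, and fewer cells of a type cannot be told apart from less RNA per cell. The 4 tapetum markers summed to 3902 RPKM in B. carinata, compared with 944 in the hybrid and 788 in B. napus, and none was at 0. The 5 late pollen markers summed to 4.82, 2.37 and 616 RPKM, also with none at 0. Petal and stamen identity genes (AP3 and PI) summed to 641, 563.5 and 387 RPKM, and 6 green tissue IDs to 3052, 2408 and 1776 RPKM, of which 1, 1 and 2 were at 0. The part of these markers in the results that follow was not tested.

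DELLA transcripts and GID1 receptor transcripts stood higher in B. carinata than in B. napus, while the sums of all 3 oxidase families stood lower. The DELLA sum was 249 RPKM in B. carinata, against 216 in the hybrid and 136 in B. napus, and the receptor sum was 30.8, 31.3 and 19.2 RPKM. The 20-oxidase sum was 11.6, 14.4 and 19.6 RPKM, the 3-oxidase sum 14.2, 14.3 and 19.6 RPKM and the 2-oxidase sum 15.7, 20.3 and 23.9 RPKM. By reads the 3-oxidases were further apart, with 184, 247 and 507 reads. Their read ratio was 0.364 (interval 0.306 to 0.432) between the parents and 1.39 (interval 1.15 to 1.70) for the hybrid over B. carinata. Short sequences weigh more in summed RPKM than in reads. For the 3-oxidases and 2-oxidases the direction between the parents turns when no score ratio is asked for, with log2 ratios of 0.07 and 1.04 in place of -0.43 and -0.57. The hybrid sums lay between those of the parents in every family but the receptors, although with TMM factors the hybrid's 20-oxidase, 3-oxidase and 2-oxidase sums were at or above B. napus (log2 ratios of 0.01, 0.01 and 0.21 in place of -0.43, -0.43 and -0.23). The receptor sums of the hybrid and B. carinata were nearly equal on RPKM, with a log2 ratio of 0.02. By reads the hybrid's receptor sum lay between the parents. Its read ratio was 0.907 (interval 0.824 to 0.997) to B. carinata and 1.12 (interval 1.01 to 1.24) to B. napus, where the RPKM ratio was 1.63.

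**Figure D1:**
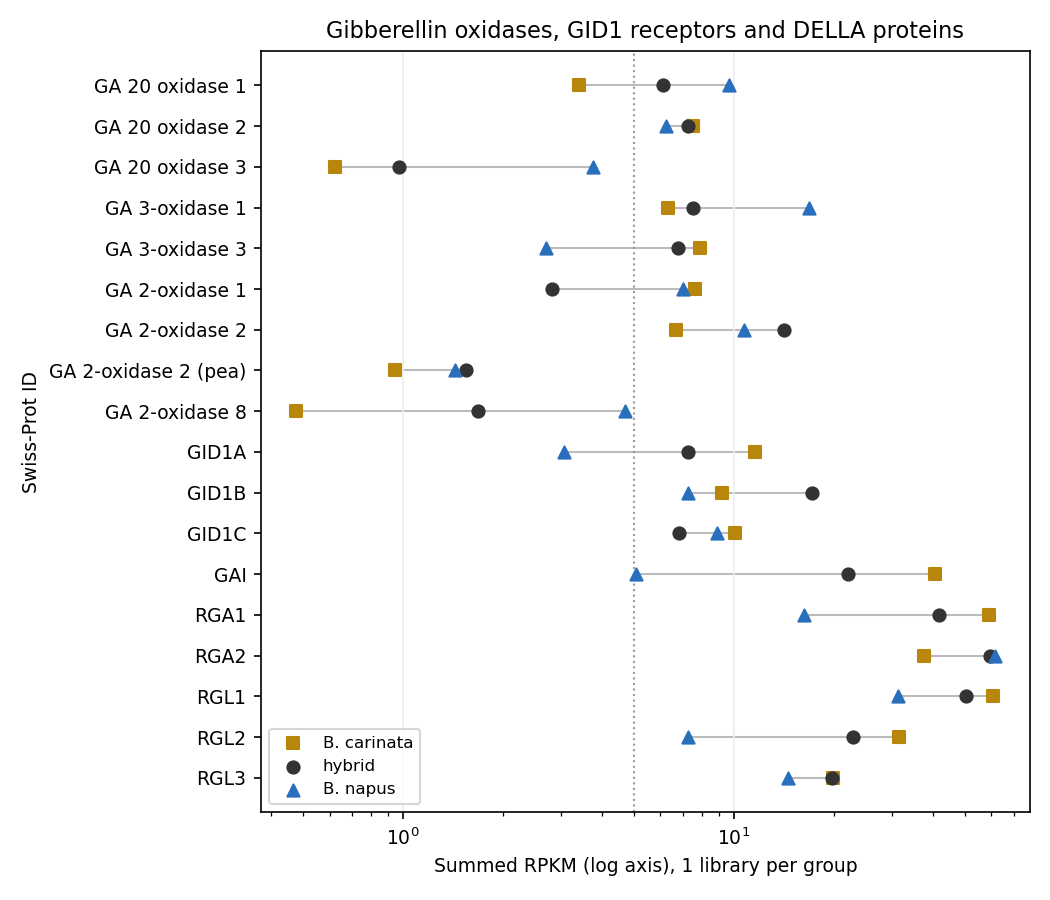
Summed RPKM (log axis) of the 18 Swiss-Prot IDs, with 1 point for each of the 3 libraries and a dotted line at 5 RPKM. The hybrid point lies between the parental points for most IDs, and lies outside them for GID1B (17.2 RPKM), GID1C (6.83 RPKM), GA 2-oxidase 1 (2.82 RPKM), GA 2-oxidase 2 (14.2 RPKM) and the pea-type 2-oxidase (1.55 RPKM).

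Of the 20-oxidases, which make the direct precursors of bioactive gibberellin, gibberellin 20 oxidase 1 had 3.41 RPKM in B. carinata (119 reads), 6.11 in the hybrid (204 reads) and 9.67 in B. napus (314 reads). B. carinata was lowest and the hybrid lay near the middle, at 93.5% of the mid-parent value, the mean of both parental RPKM values. The read ratio of B. carinata to B. napus was 0.380 (interval 0.305 to 0.471), and that of the hybrid to B. napus was 0.677 (interval 0.565 to 0.810). Gibberellin 20 oxidase 2 had 7.54, 7.27 and 6.23 RPKM (172, 183 and 143 reads in B. carinata, hybrid and B. napus). Its read ratio between the parents was 1.21 (interval 0.961 to 1.52), so that no difference was detectable at this depth. Gibberellin 20 oxidase 3 was the weakest of the family, with 0.621, 0.974 and 3.74 RPKM from 7, 10 and 40 reads. Within the family, 20 oxidase 2 held 65.2% of the family's RPKM in B. carinata, compared with 50.6% in the hybrid and 31.7% in B. napus. Sequences of 20 oxidase 1 and 2 share the assembly cluster CL23591, and together they had 11.0, 13.4 and 15.9 RPKM.

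The 3-oxidases turn these precursors into bioactive gibberellin, and the 2 measured IDs went in opposite directions between the parents. Gibberellin 3-beta-dioxygenase 1, the enzyme of the Arabidopsis GA4 locus, had 6.30 RPKM in B. carinata (113 reads), 7.52 in the hybrid (184 reads) and 16.9 in B. napus (475 reads). B. napus was more than 2-fold above both other libraries, with read ratios of 0.239 (interval 0.193 to 0.294) for B. carinata and 0.404 (interval 0.339 to 0.480) for the hybrid. With TMM factors the hybrid was within 2-fold of B. napus, at a log2 ratio of -0.65 in place of -1.07. Its top sequence, CL15681.Contig2, had 1.42, 3.56 and 10.1 RPKM, and the next, CL15681.Contig1, had 2.32, 3.42 and 6.77 RPKM. Both sequences followed the same order of libraries, while the third, CL15681.Contig3, went the other way, with 20, 4 and 0 reads. Gibberellin 3-beta-dioxygenase 3, which Arabidopsis uses mainly in reproductive organs, had 7.92, 6.78 and 2.70 RPKM from 71, 63 and 32 reads. Here the hybrid lay near B. carinata, at a read ratio of 0.922 (interval 0.646 to 1.31), and above B. napus, at 2.05 (interval 1.32 to 3.25). Of its sequences, Unigene36725, of 216 bases, had 24, 15 and 0 reads. Unigene6776 had 47, 48 and 32 reads, a read ratio of 1.47 between the parents (interval 0.921 to 2.39). The ID was at least 2-fold above B. napus in 6 of 10 other settings, both in B. carinata and in the hybrid. The first enzyme held 44.3% of the 3-oxidase RPKM in B. carinata, against 52.6% in the hybrid and 86.2% in B. napus. The late pollen markers, also highest in B. napus, summed to 4.82, 2.37 and 616 RPKM, and their part in the 3-oxidase values was not tested.

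The 2-oxidases add a hydroxyl group that makes gibberellin inactive, and in the hybrid the 2 that reached 5 RPKM lay outside the parental range in opposite directions. Gibberellin 2-beta-dioxygenase 1 had 7.63 RPKM in B. carinata (74 reads), 2.82 in the hybrid (22 reads) and 7.04 in B. napus (90 reads). The parents did not differ detectably at this depth, at a read ratio of 0.825 (interval 0.598 to 1.13), and the hybrid had 38.4% of the mid-parent value. The hybrid's read ratio was 0.309 (interval 0.183 to 0.503) to B. carinata and 0.255 (interval 0.152 to 0.410) to B. napus. All 5 of its sequences stayed under 5 RPKM, and 22 reads in the hybrid are few. The log2 ratio of the hybrid to the mid-parent was -1.13, which moved to -0.88 with TMM factors and to -0.66 with a pseudocount of 5 RPKM, and the ratio to B. carinata moved from -1.18 to -0.55 in sequences of at least 500 bases. Gibberellin 2-beta-dioxygenase 2 had 6.69, 14.2 and 10.8 RPKM (120, 216 and 123 reads), so that the hybrid was highest, at 163% of the mid-parent value. By reads the hybrid exceeded B. carinata 1.87 times (interval 1.49 to 2.36) and B. napus 1.83 times (interval 1.46 to 2.303), and the summed reads of the parents did not differ detectably (0.979, interval 0.755 to 1.27). Its sequences differed, as CL16585.Contig1 had 76, 112 and 2 reads and CL15404.Contig1 had 16, 53 and 51. In the latter, the sequence of highest mean, the log2 ratio of the hybrid over B. napus was 0.10 in place of 0.37. The share of 2-oxidase RPKM held by the second enzyme was 42.5% in B. carinata, compared with 70.1% in the hybrid and 45.0% in B. napus. Gibberellin 2-beta-dioxygenase 8, one of the 2-oxidases that act on early precursors, had 0.475, 1.69 and 4.67 RPKM from 14, 45 and 101 reads. A single sequence matched to a pea 2-oxidase, whose best Nr hit is gibberellin 2-oxidase 6 of Arabidopsis, had 0.945, 1.55 and 1.44 RPKM. Its score ratio of 0.636 was the lowest among members, and a further pea-type sequence just outside the limit, at 0.593, had 0, 0.750 and 1.87 RPKM.

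Among the receptors, the hybrid had more GID1B transcript than either parent. It also had less GID1C than either parent, although for GID1C the log2 ratio to B. napus of -0.33 turned to 0.07 with TMM factors and to 1.75 in the sequence of highest mean. GID1B had 9.19 RPKM in B. carinata (126 reads), 17.2 in the hybrid (278 reads) and 7.29 in B. napus (164 reads), and the hybrid reached 209% of the mid-parent value. The hybrid's read ratio was 2.29 (interval 1.85 to 2.85) to B. carinata and 1.77 (interval 1.45 to 2.16) to B. napus. By reads B. carinata was below B. napus, at 0.771 (interval 0.606 to 0.978), although its RPKM was higher, and short sequences weigh more in summed RPKM than in reads. GID1B was spread over 7 sequences, of which CL8165.Contig2 had 1, 62 and 19 reads in B. carinata, the hybrid and B. napus and CL11875.Contig3 had 48, 140 and 120 reads. Restricted to sequences of at least 500 bases, which leaves the latter of these 2, the log2 ratio of the hybrid over B. napus was 0.22 instead of 1.14, and that over B. carinata was 1.12 instead of 0.84. GID1C had 10.1, 6.83 and 8.86 RPKM (500, 333 and 463 reads), and the hybrid was lowest, at 0.692 times B. carinata (interval 0.6005 to 0.796) and 0.750 times B. napus (interval 0.649 to 0.865) by reads. GID1A had 11.5 RPKM in B. carinata (301 reads), 7.26 in the hybrid (198 reads) and 3.07 in B. napus (126 reads). By reads the hybrid was 1.64 times B. napus (interval 1.304 to 2.06), where the RPKM ratio was 2.37. The hybrid was at least 2-fold above B. napus in 8 of 12 other settings, at a lowest log2 ratio of 0.57 in place of 1.02. For B. carinata this held in 11 of 12. The sequences of GID1A differed, as CL9873.Contig1 had 123, 48 and 0 reads and Unigene1709 had 2, 12 and 44. The hybrid lay at 99.4% of the mid-parent value for GID1A. By RPKM the leading receptor was GID1A in B. carinata, with 37.5% of the family's RPKM, GID1B in the hybrid, with 55.0%, and GID1C in B. napus, with 46.1%. By reads, which do not weigh short sequences up, GID1C had the most in all 3 libraries (500, 333 and 463). GID1A and GID1C share the assembly cluster CL9873, and together they had 21.6, 14.1 and 11.9 RPKM.

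Among members, DELLA transcripts had the highest summed RPKM of the 5 families in each library. With no score ratio asked for, the 20-oxidase sum in B. napus was higher, at 200 RPKM against 136 for DELLA. In B. carinata GAI, RGA1, RGL1 and RGL2 stood above B. napus, RGA2 stood below it, and the reads of RGL3 did not differ detectably. RGA1, named after a B. rapa (B. campestris) protein, had 59.1 RPKM in B. carinata (2950 reads), 41.6 in the hybrid (2001 reads) and 16.2 in B. napus (769 reads). The read ratio of B. carinata to B. napus was 3.85 (interval 3.55 to 4.17). RGA2, the second B. rapa type, had 37.4 RPKM in B. carinata (2175 reads), 59.6 in the hybrid (3608 reads) and 61.4 in B. napus (3969 reads). Here the hybrid lay near B. napus, at a read ratio of 0.948 (interval 0.906 to 0.992), and 1.72 times above B. carinata (interval 1.63 to 1.82). With TMM factors the log2 ratio of RGA2 in the hybrid over B. napus was 0.41 in place of -0.04. RGA2 held 15.02% of all DELLA RPKM in B. carinata, against 27.6% in the hybrid and 45.2% in B. napus, and RGA1 held 23.7%, 19.2% and 12.0%. RGA1 and RGA2 share the assembly cluster CL4933, and how reads were divided among copies that differ little is not known. Their sum was 96.5, 101.2 and 77.7 RPKM, a read ratio of 1.09 (interval 1.04 to 1.13) between the parents.

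**Figure D2:**
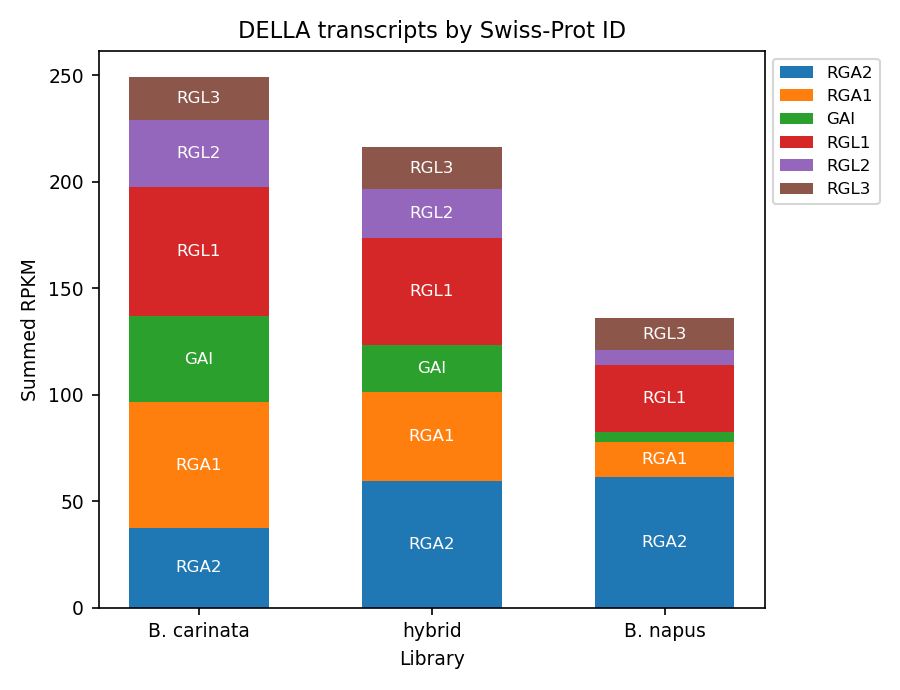
Summed RPKM of the 6 DELLA IDs, stacked per library (1 library per group, bars start at 0). The stacks reach 249 RPKM in B. carinata, compared with 216 in the hybrid and 136 in B. napus, and the RGA2 part grows from 37.4 to 61.4 RPKM while the GAI part shrinks from 40.5 to 5.06 RPKM.

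The ID named GAI rests on 1 sequence of 1155 bases with a Swiss-Prot score of 99.4, a short match for a sequence of this length, so its identity rests on less than that of most members (2 short-match RGA1 sequences have a score of 39.7). It had 40.5 RPKM in B. carinata (1318 reads), 22.0 in the hybrid (690 reads) and 5.06 in B. napus (165 reads). This was the widest parental gap of the set among IDs with at least 5 RPKM, with 8.02 as the read ratio (interval 6.81 to 9.48), and the hybrid had 96.7% of the mid-parent value.

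The RGL proteins are DELLA proteins named as relatives of RGA. In Arabidopsis RGL1 and RGL2 act with RGA in floral development, and RGL2 also restrains seed germination. RGL1 had 60.5 RPKM in B. carinata (3218 reads), 50.4 in the hybrid (2401 reads) and 31.3 in B. napus (1371 reads), a read ratio of 2.36 (interval 2.21 to 2.51) between the parents. RGL2 had 31.6, 22.9 and 7.24 RPKM (1292, 941 and 420 reads), a read ratio of 3.09 (interval 2.76 to 3.45). For both, with library totals as the scale, the hybrid lay between the parents and nearer to B. carinata. With median-of-ratios factors the hybrid's log2 ratio to the mid-parent moved from 0.13 to -0.08 for RGL1 and from 0.23 to -0.02 for RGL2. RGL3 had 19.96, 19.8 and 14.6 RPKM (811, 949 and 858 reads), and its read ratio of 0.948 between the parents (interval 0.861 to 1.05) includes 1. The 3 RGL proteins together had 112, 93.1 and 53.1 RPKM. The tapetum markers summed to 3902, 944 and 788 RPKM, of which 1 gene, A9, gave 3665, 853 and 729 RPKM. AP3 and PI (641, 563.5 and 387 RPKM) and the green tissue IDs (3052, 2408 and 1776 RPKM) had the same order of libraries. Late pollen markers, at 4.82, 2.37 and 616 RPKM, did not. The part of these 4 marker groups in the DELLA values was not tested.

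Single sequences showed which copies made these sums. RGA1 was carried by CL4933.Contig3, with 37.0, 26.5 and 8.77 RPKM, followed by CL4933.Contig8, with 10.8, 4.71 and 0.355 RPKM. The RGA1 sequence CL4933.Contig1 went the other way, with 0 reads in B. carinata, against 90 in the hybrid and 194 in B. napus. The top sequences of RGA2 were Unigene33237, with 11.2, 20.5 and 23.8 RPKM, and Unigene33236, with 8.07, 22.8 and 23.7 RPKM. Other RGA2 sequences had no read in B. napus, as Unigene33239 had 441 reads in B. carinata, compared with 180 in the hybrid and 0 in B. napus. The hybrid library thus held RGA1 sequences that had reads in 1 parent and none in the other, from either side. Those of the B. carinata side were short-match sequences with a score of 39.7, such as CL12589.Contig1 with 101, 71 and 0 reads. For RGA2, such sequences in the hybrid came from the B. carinata side only.

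RGL1 had 1 sequence of near-equal level, CL17826.Contig1, with 24.2, 23.3 and 20.6 RPKM. The higher RGL1 sum of B. carinata came from CL17826.Contig2, with 36.3, 22.5 and 3.49 RPKM. The third sequence, Unigene31212, went the other way, with 0, 4.64 and 7.15 RPKM (0, 61 and 98 reads). RGL2 also had a sequence of near-equal level, Unigene24270 at 5.13, 5.11 and 5.54 RPKM, beside Unigene24271 at 16.4, 10.9 and 0.0330 RPKM. For RGL3, CL8529.Contig6 was highest in the hybrid, with 6.53, 12.5 and 9.34 RPKM, while CL8529.Contig7 had 7.45, 3.82 and 0.0965 RPKM. RGL2 and RGL3 share the assembly cluster CL8529, and together they had 51.6, 42.7 and 21.9 RPKM.

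**Figure D3:**
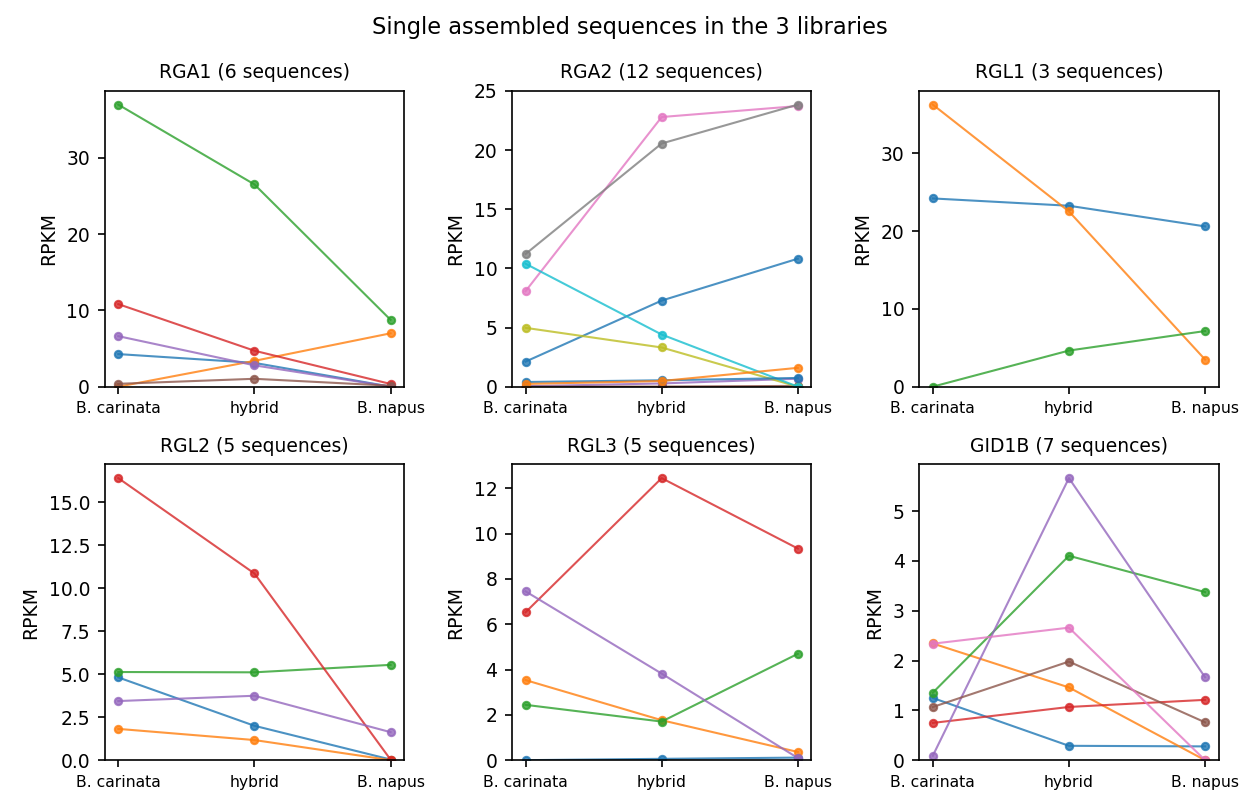
RPKM of every single assembled sequence of RGA1, RGA2, RGL1, RGL2, RGL3 and GID1B in the 3 libraries, with 1 line per sequence (the lines only join the values of a sequence). In RGL1 one line is nearly level (24.2, 23.3 and 20.6 RPKM), another drops from 36.3 to 3.49 RPKM and the third rises from 0 to 7.15 RPKM. In RGA2 lines cross between the parents.

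Of the 79 sequences, 56 had reads in all 3 libraries, 10 in B. carinata and the hybrid only, 5 in the hybrid and B. napus only, and 4 in no library. Members with reads in all 3 made up 70.9%, against 53.7% of all 157663 sequences. The 10 sequences with 0 B. napus reads and at least 20 B. carinata reads all had reads in the hybrid, at a median of 63.3% of the B. carinata RPKM (range 20.8% to 114%). Over the 20036 such sequences of the whole table the median was 47.2%. The 2 sequences private to B. napus had 48.4% and 64.9% of its level in the hybrid, and the median over 8234 such sequences was 42.2%. Copies from the parents can be assembled apart, so these shares depend on the assembly too. By the same 2-fold rule, 10 of 23 member sequences were higher in B. carinata than in B. napus (background 41.8% of 49318 single sequences) and 9 were lower (background 33%). Between the hybrid and B. carinata 4 of 19 were higher (background 19%) and 5 lower (background 17.6%), and between the hybrid and B. napus 5 of 18 were higher (background 28.1%) and 1 lower (background 15.6%). Against the mid-parent value 1 of 16 was higher (background 4.62%) and none lower (background 6.53%).

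Counted by ID, 5 of 15 members exceeded B. napus at least 2-fold in B. carinata (GAI, RGA1, RGL2, GID1A and 3-beta-dioxygenase 3), against a background of 18.3% of all 8460 IDs with at least 5 RPKM. Another 2 were at least 2-fold lower (20 oxidase 1 and 3-beta-dioxygenase 1), against a background of 12.8%. The median log2 ratio of the members was 0.30 and that of all IDs was 0.07. With IDs that share an assembly cluster merged, 3 of 11 were higher and 1 was lower. RGA1 and RGA2 together then had a log2 ratio of 0.31.

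Between the hybrid and B. carinata, no member was at least 2-fold higher (background 3.81%) and 1 was lower, 2-beta-dioxygenase 1 (background 8.44%). The median log2 ratio of the 15 members was -0.20, and that of all 8067 IDs was -0.08. Closest to the upper limit were 2-beta-dioxygenase 2 and GID1B, at log2 ratios of 0.98 and 0.84, and with TMM factors both passed it, at 1.16 and 1.01, whereas median-of-ratios factors gave 0.70 and 0.55.

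Between the hybrid and B. napus, 6 of 15 members were at least 2-fold higher in the hybrid (GAI, RGA1, RGL2, GID1A, GID1B and 3-beta-dioxygenase 3), against a background of 8.51% of 8089 IDs. Lower were 2 members (3-beta-dioxygenase 1 and 2-beta-dioxygenase 1), against 8.07%. The median log2 ratio was 0.41 for the members and 0.01 for all IDs. With sums of RPM, where length plays no part, 3 were higher and 2 were lower. With TMM factors none was lower, as 3-beta-dioxygenase 1 moved to -0.65 and 2-beta-dioxygenase 1 to -0.70. The comparisons share libraries, so their counts are not independent.

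**Figure D4:**
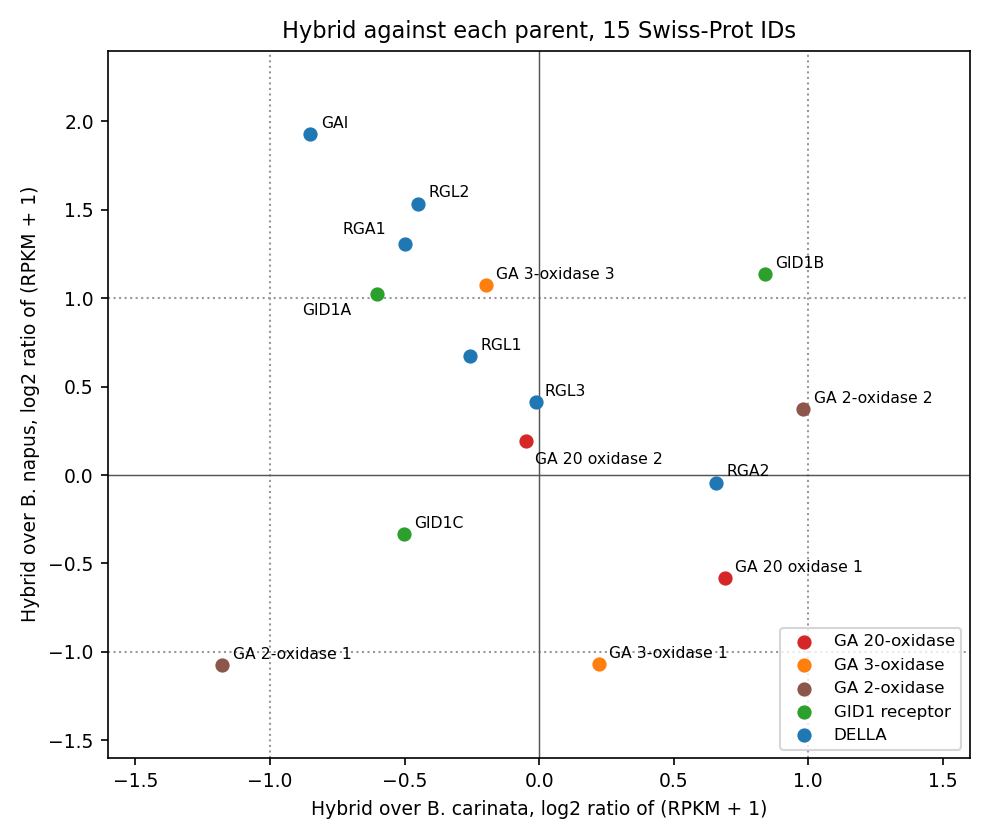
Log2 ratio of the hybrid over B. carinata (horizontal) and over B. napus (vertical), both after adding 1 RPKM, for the 15 IDs with at least 5 RPKM; dotted lines mark 2-fold and the same hybrid library enters both axes. GAI sits at -0.85 and 1.93, GID1B at 0.84 and 1.14, and 2-oxidase 1 at -1.18 and -1.07 is the lowest on both axes.

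Against the mid-parent value, no member was at least 2-fold higher (background 0.717%) and 1 was lower, 2-beta-dioxygenase 1 (background 6.18%). GID1B missed the limit at a log2 ratio of 0.98 and passed it with TMM factors or with a pseudocount of 0.1 RPKM, and with median-of-ratios factors its log2 ratio was 0.80. The hybrid lay between the parental RPKM values for 11 of 15 members, above both for 2 (GID1B and 2-beta-dioxygenase 2) and below both for 2 (GID1C and 2-beta-dioxygenase 1). Over all 8510 IDs with at least 5 RPKM in a library, 58.5% lay between the parents, 19.4% above and 22.1% below. By reads 9 members lay between, 4 above and 2 below, as RGL3 and 20 oxidase 2 also exceeded both parents. With library totals as the scale, all 6 DELLA proteins had a hybrid level between 96.7% and 121% of the mid-parent RPKM. Their sum had a log2 ratio of 0.17 to the mid-parent, which became 0.44 with TMM factors and -0.05 with median-of-ratios factors. The highest of the 6, RGA2, moved from 0.27 to 0.61 with TMM factors.

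Other genes of the pathway were described from 3 lists. Of the 5 enzymes that lead from geranylgeranyl diphosphate to the first gibberellin, 4 reached 5 RPKM, and 1 of these was at least 2-fold lower in B. carinata than in B. napus (background 12.8%) and none was apart between the hybrid and a parent. Their median log2 ratios were -0.38 for B. carinata over B. napus, 0.28 for the hybrid over B. carinata and 0.04 for the hybrid over B. napus. Ent-kaur-16-ene synthase, the second enzyme of the route, had 9.34 RPKM in B. carinata (310 reads), 18.2 in the hybrid (567 reads) and 21.0 in B. napus (667 reads). Ent-kaurene oxidase, the next enzyme, had 7.55, 9.38 and 7.62 RPKM. Ent-kaurenoic acid oxidase 2 had 17.4, 17.5 and 11.0 RPKM, and ent-kaurenoic acid oxidase 1 had 5.47, 6.88 and 9.87 RPKM. Ent-copalyl diphosphate synthase, which starts the route, stayed low at 1.70, 0.658 and 2.39 RPKM from 26, 10 and 38 reads.

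Of 5 matched partners of the DELLA proteins, all reached 5 RPKM. By the 2-fold rule 1 was lower in B. carinata than in B. napus (SNE, background 12.8%). In the hybrid 1 was higher (SNE, background 3.81%) and 1 lower (GAMYB, background 8.44%) than in B. carinata, and 1 was lower than in B. napus (GAMYB, background 8.07%). Their median log2 ratios in the same 3 comparisons were 0.32, 0.31 and 0.19. GID2, the F-box protein that marks DELLA proteins for breakdown, had 60.9 RPKM in B. carinata (1416 reads), 75.7 in the hybrid (1708 reads) and 48.6 in B. napus (1155 reads), all within 2-fold of each other. SNE, a relative of GID2, had 7.05, 16.5 and 24.1 RPKM (117, 261 and 394 reads), a read ratio of 0.298 (interval 0.240 to 0.367) between the parents and of 2.32 (interval 1.86 to 2.91) for the hybrid over B. carinata. SPINDLY, a glycosyltransferase that modifies DELLA proteins, had 55.7, 54.2 and 29.0 RPKM but more equal reads (2592, 2938 and 2264). Scarecrow-like protein 3, a GRAS protein that opposes DELLA proteins in Arabidopsis, had 9.43, 11.9 and 10.3 RPKM. The ID named GAMYB, after a rice anther transcription factor, had 31.0, 6.94 and 15.1 RPKM (504, 142 and 301 reads). The hybrid was lowest there, at read ratios of 0.293 (interval 0.241 to 0.353) to B. carinata and 0.492 (interval 0.400 to 0.602) to B. napus. Of its 6 sequences 5 had a MYB domain protein of Arabidopsis with the symbol MYB101 as their best Nr hit, and Unigene46631 alone held 446, 52 and 125 reads.

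Gibberellin-regulated proteins (GASA) are small secreted proteins with many cysteines, several of which respond to gibberellin in Arabidopsis. Of 11 IDs 8 reached 5 RPKM. Between the parents 4 of 8 stood 2-fold or more above B. napus in B. carinata (background 18.3%) and 1 stood below (background 12.8%), at a median log2 ratio of 0.90. Between the hybrid and B. carinata 4 of 8 stood 2-fold or more below (background 8.44%) and none above (background 3.81%), at a median of -0.63. Between the hybrid and B. napus 2 of 6 stood above (background 8.51%) and 1 below (background 8.07%), at a median of 0.18. Gibberellin-regulated protein 10 had 101.3 RPKM in B. carinata (1662 reads), 7.66 in the hybrid (121 reads) and 1.09 in B. napus (18 reads). Its read ratio was 92.6 (interval 58.4 to 157) between the parents and 0.0756 (interval 0.0624 to 0.0910) for the hybrid over B. carinata. Protein 3 had 70, 2 and 0 reads, and protein 6 had 9.25, 1.81 and 2.57 RPKM (143, 27 and 40 reads). Both were highest in B. carinata, as were the tapetum markers, whose part in these values was not tested. Protein 1 went the other way, with 51.6, 61.8 and 142 RPKM (837, 1052 and 2650 reads), and protein 13 had 9.28, 7.83 and 11.0 RPKM.

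**Figure D5:**
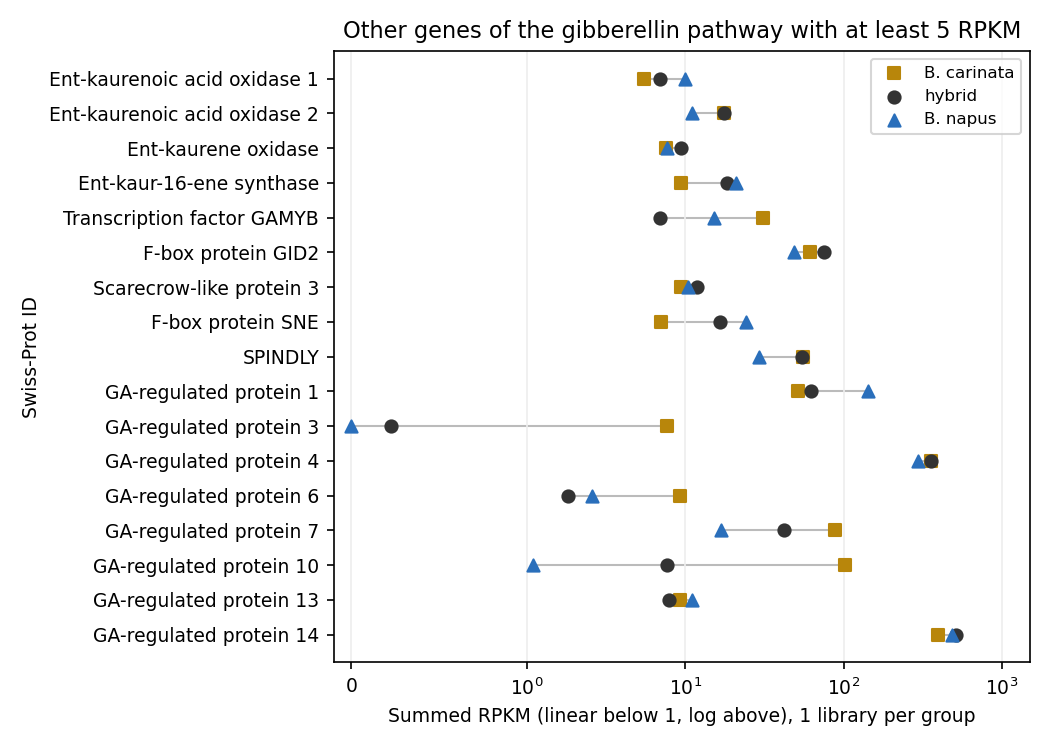
Summed RPKM of the 17 other pathway IDs with at least 5 RPKM in a library (axis linear below 1 and logarithmic above), with 1 point per library. Proteins 3, 6 and 10 of the gibberellin-regulated family have their highest point in B. carinata (7.60, 9.25 and 101.3 RPKM), and proteins 4 and 14 are high in all 3 libraries (295 to 358 and 395 to 509.5 RPKM).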

How the data were processed

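The authors deposited raw read counts and RPKM values for each assembled sequence and library, with its length and its best hits with their scores in Nr and Swiss-Prot, per the file headers. The sources used here do not name an assembler, aligner, counter or search tool. The deposited counts sum exactly to the totals in the file headers, and the deposited RPKM equal count over length and total within 5e-05. RNA came from Trizol extraction with DNase treatment, per the labels' protocols.

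RPKM and counts were summed per Swiss-Prot ID. The background is all IDs at the same score ratio. Members and lists were chosen with earlier results of these data known. The rule named every member ID with at least 5 RPKM in a library, the 2 highest sequences of IDs with 2 or more sequences at 5 RPKM, and up to 5 IDs per pathway list by the log2 ratio of the hybrid over the mid-parent. The 3 lower member IDs, and further sequences and pathway IDs, were named outside it after their values were seen. List names were matched as whole names, so Scarecrow-like proteins with other numbers were left out. With 1 library per group no test was made. Alternatives were other pseudocounts, scalings, filters, score ratios and sums. The 2-fold rule was checked on simulated counts that held only counting error, with changes well beyond 2-fold in IDs well above 5 RPKM. The check does not cover IDs near either limit or differences between replicate plants. Tools were Python 3.11.15, numpy 2.4.6, pandas 2.3.3, SciPy 1.17.1, matplotlib 3.10.9 and, for TMM factors, edgeR 4.0.16 in R 4.3.3.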

Additional observations from a re-analysis of the deposited data

How the results depend on the processing

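No paired analysis was possible because each group has 1 library, and for the same reason no library could be left out. Counts are members at least 2-fold apart. For B. carinata over B. napus (5 higher, 2 lower), lower became 0 with a pseudocount of 5 RPKM, 4 with no filter on low values and 4 with the sequence of highest mean; merging IDs of a shared cluster gave 3 higher and 1 lower. For the hybrid over B. carinata (0 and 1), higher became 1 with a pseudocount of 0.1 RPKM, with no score ratio, with sums of RPM and with the sequence of highest mean, and 2 with TMM factors and with sequences read in all 3 libraries. Lower became 2 with median-of-ratios factors, no score ratio and the sequence of highest mean, and 0 with a pseudocount of 5 RPKM, sequences of at least 500 bases or a Swiss-Prot score of at least 100. For the hybrid over B. napus (6 and 2), higher became 3 with a pseudocount of 5 RPKM, sums of RPM, the sequence of highest mean, sequences read in all 3 libraries and merged IDs. Lower became 0 with a pseudocount of 5 RPKM and TMM factors, 4 with no filter, and 1 with the sequence of highest mean and sequences of at least 500 bases. For the hybrid over the mid-parent (0 and 1), higher became 1 with a pseudocount of 0.1 RPKM, TMM factors and sequences read in all 3 libraries, and lower became 0 with a pseudocount of 5 RPKM, TMM factors, the sequence of highest mean and sequences of at least 500 bases. The cause was not tested. The score of 100 and the merged IDs were chosen after seeing the data. Of 928 recomputed log2 ratios 870 kept their sign. These include all ratios with other pseudocounts or with no filter on low values, settings that cannot change a sign. No ratio reported at 2-fold or more changed sign. Some reported within 2-fold did so widely: with no score ratio the 2-oxidase sum went from -0.57 to 1.04 (B. carinata over B. napus) and from 0.34 to -1.04 (hybrid over B. carinata), and with the sequence of highest mean GID1C went from -0.33 to 1.75 (hybrid over B. napus). RGA1 and RGL2 stayed at least 2-fold above B. napus in both comparisons under the 12 settings that keep each ID apart, and GAI under the 11 that keep its sequence. As GAI is 1 sequence, only the pseudocounts, the scalings and the sums of RPM among these could move its ratio. Merged with their cluster partners, RGA1 and RGA2 fell within 2-fold, at 0.31 and 0.38, and RGL2 and RGL3 had 1.20 for B. carinata and 0.93 for the hybrid over B. napus. Read numbers limit the oxidases, with 22 to 475 reads per library among those named at 5 RPKM.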

Other observations

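A further 22 sequences have a gibberellin oxidase as their Swiss-Prot hit, but with a score below 0.6 of the Nr score, and were left out. They are 14 of 20-oxidase, 6 of 2-oxidase and 2 of 3-oxidase name. The highest, CL5015.Contig2 with a 20 oxidase 1 hit and a score ratio of 0.316, had 21.5 RPKM in B. carinata (949 reads), 54.1 in the hybrid (2300 reads) and 158 in B. napus (6978 reads), more than all 20-oxidase members together. Its best Nr hit is named oxidoreductase. CL13654.Contig1, with a 2-beta-dioxygenase 8 hit at 0.399, had 66.3, 16.1 and 15.7 RPKM (1953, 457 and 464 reads), and its Nr hit is also an oxidoreductase. With these sequences the 20-oxidase sum would be 49.5, 84.4 and 200 RPKM and the 2-oxidase sum 93.5, 44.9 and 45.1 RPKM. Whether they act on gibberellin cannot be read from these hits.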
